A study of Mus musculus with 6 samples.

Results

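The cytosolic ribosomal protein genes encode the proteins that, together with ribosomal RNA, form the small and the large subunit of the ribosome outside mitochondria. They were chosen by name alone, as symbols of Rps or Rpl with a number and at most 1 letter (a, l, x or y), plus Rplp0, Rplp1, Rplp2 and Rpsa, with a mean above 0 FPKM. FPKM is a read density, with a gene's fragments divided by its exon length and by the size of the library. Of 24537 genes listed, 82 matched the name rule; Rpl10l was listed at 0 in every library, which left 81 genes, 32 with small and 49 with large subunit names. GENCODE M21 types 79 of them as protein-coding and 2, Rps4l and Rpl32l, as processed pseudogenes; both are counted because the choice was by name. The tissue was cerebellum from males aged 6 weeks, and total RNA was sequenced with a stranded kit. There were 3 libraries from wild-type mice with the strain label C57BL/6, and 3 from animals carrying 1 null allele of Reln (heterozygous), the gene of the secreted glycoprotein reelin, with the strain label Orl/BalbC. Genotype and labelled strain change together in every library and cannot be told apart. Nothing in the labels ties a library to its own animal, so p-values measure only the spread between these libraries. Values for single libraries are always listed in the order of replicates 1, 2 and 3.

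Each ribosome holds 1 copy of most of these proteins, and cells make them at matched rates; the stalk proteins Rplp1 and Rplp2 are an exception that is present in more copies. Their mRNAs are short, abundant and long-lived, and most begin with a terminal oligopyrimidine (TOP) tract, a C followed by a run of C and T, through which growth signals such as mTOR control their translation. In the mammalian genome they have left many processed pseudogenes, copies of the mRNA without introns, and several carry genes of small nucleolar RNAs (snoRNAs) in their introns. In cerebellum all cell types transcribe them, so their level in whole tissue is a sum over granule cells, Purkinje cells, other neurons and glia. In such tissue, fewer cells of a type and less RNA per cell cannot be told apart.

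The starts of these genes are shown for the pyrimidine tract, which the choice by name did not use. RefSeq windows (GRCm38.p6, the assembly also called mm10) were found for 56 of the 77 genes tested below. The sequences run from 40 bases before to 20 bases from the annotated start, with the longest run of C and T within 25 bases of that start in capitals. They are the 4 genes with the largest differences that can be shown, the gene with the longest run (Rpl7a), and the 2 genes with a lower mean in heterozygous libraries (Rps16 and Rps27l).

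Rps13 (chr7:116334171-116334230, minus strand): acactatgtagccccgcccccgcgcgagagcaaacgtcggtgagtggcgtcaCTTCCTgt
Rpl13a (chr7:45128726-45128785, minus strand): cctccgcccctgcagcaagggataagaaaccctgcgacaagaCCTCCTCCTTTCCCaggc
Rps18 (chr17:33955646-33955705, minus strand): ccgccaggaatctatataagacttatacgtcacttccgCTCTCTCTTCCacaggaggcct
Rplp0 (chr5:115559427-115559486, plus strand): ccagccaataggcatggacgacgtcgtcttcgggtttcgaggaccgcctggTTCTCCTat
Rpl7a (chr2:26910767-26910826, plus strand): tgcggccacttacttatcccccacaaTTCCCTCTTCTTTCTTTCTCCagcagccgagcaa
Rps16 (chr7:28350649-28350708, plus strand): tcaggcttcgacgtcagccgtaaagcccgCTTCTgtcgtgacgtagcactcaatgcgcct
Rps27l (chr9:66946046-66946105, plus strand): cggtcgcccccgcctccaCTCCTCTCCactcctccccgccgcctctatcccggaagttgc

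The run measured 21 bases in Rpl7a, 14 in Rpl13a, 11 in Rps18 and 5 in Rps16. A run of at least 8 pyrimidines within 25 bases of a start was present for 30 of the 56 genes (53.6%), against 22.3% of all 27025 genes with a window and 22.7% of the tested genes. The string CTTTCC, which falls inside such runs, lay on the sense strand there in 17.9% of the 56, against 2.9% of all genes. Over the whole window of 300 bases and both strands, CCGGAAGT occurred in 21.4% of the 56, against 4.3% of all and 11.1% of the tested genes, and TCTCGCGA in 17.9%, against 1.1% and 3.1%. TATAAA was found in none of the 56 within 50 bases before the start, against 3.1% of all genes and 1.5% of the tested genes. Several annotated starts lie some bases away from the tract, so these shares describe the windows and not the start of transcription in these samples.

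The steps between low FPKM values gave approximate depths of 26700000 to 28600000 reads in wild-type and 22900000 to 27100000 in heterozygous libraries. Cerebellar markers were high throughout: Gabra6 of granule cells ranged from 53.7 to 68.3 FPKM and Pcp2 of Purkinje cells from 122 to 175 FPKM. Reln itself was lower in heterozygous libraries (0.509 to 0.580 FPKM) than in wild-type ones (0.771 to 0.940 FPKM). Libraries stood apart within both groups. Ttr, expressed by choroid plexus, had 273, 0.566 and 150 FPKM in the wild-type libraries, and the heterozygous libraries had 3.15, 156 and 6.43 FPKM. All 7 choroid plexus markers together ranged from 0.829 to 287 FPKM among wild-type and from 3.68 to 164 FPKM among heterozygous libraries. With Ttr as a covariate none of the ribosomal protein genes passed, the lowest adjusted p being 0.136 (limma).

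Ribosomal protein mRNAs were among the abundant messages of the tissue but spanned a wide range of FPKM. For the 77 genes whose mean reached 1 FPKM, the minimum for testing, the level had a median of 37.0 FPKM, against 2.74 FPKM for all 6358 tested genes. Among them, 70 had a mean of at least 10 FPKM and 7 a mean between 1 and 10, and 64 were among the 500 most abundant tested genes. Rpl41, which encodes the smallest protein of the ribosome, was highest at 121 ± 10 FPKM (wild type) and 141 ± 3.2 FPKM (heterozygous; SD, n = 3 per group). Rplp1 of the stalk followed with a mean of 110 FPKM over the 6 libraries, then Rps2 at the mRNA entry channel with 92.0, Rps6, the target of S6 kinase, with 80.9, and Rps15 with 80.5 FPKM. Within libraries Rpl41 was above Rplp1, Rplp1 above Rps2 and Rps2 above Rps6 in 6 of 6, while Rps6 was above Rps15 in 3 of 6, so the order of Rps6 and Rps15 is not resolved. At the low end of the tested genes stood Rpl30 (1.28 FPKM), Rps27l (2.93 FPKM), Rps16 (3.82 FPKM), Rpl22 (5.80 FPKM) and Rps4l (6.09 FPKM).

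**Figure D1:**
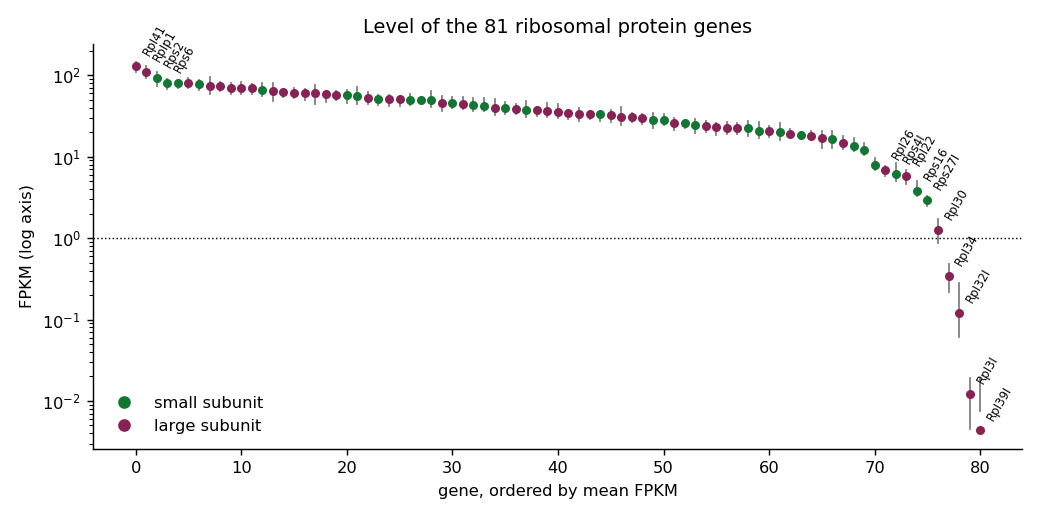
Mean FPKM over 6 libraries (log axis) of the 81 genes in order of level, with lines from the lowest to the highest library value above 0 and the testing minimum of 1 FPKM dotted. Most genes lie between 10 and 131 FPKM, and the last 4, Rpl34, Rpl32l, Rpl3l and Rpl39l, lie under 1 FPKM; libraries listed at 0 are not drawn, which puts the mean of Rpl39l below its line.

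The other 4 genes fell under the minimum and were not tested. Rpl34, a core protein of the large subunit, had wild-type values of 0.416, 0.276 and 0.260 FPKM and heterozygous values of 0.426, 0.485 and 0.216 FPKM, roughly 2.4 to 6.3 reads. Its annotated pseudogene Rpl34-ps1, which is not part of the list, had 12.6 to 14.4 FPKM among wild-type and 13.8 to 17.6 FPKM among heterozygous libraries. The sources used here do not say how reads that match several copies were assigned, so the split between the gene and its pseudogene is uncertain. Rpl32l, the annotated processed pseudogene, was at 0 to 0.281 FPKM. Rpl3l, the heart and skeletal muscle form of Rpl3, was at 0.00447 to 0.0191 FPKM (0.2 to 0.7 reads), and Rpl39l, the testis form of Rpl39, was at 0 to 0.0187 FPKM (0 to 0.2 reads).

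Sharing of sequence with copies elsewhere was common among these genes and sets a limit on their levels. For 76 of the tested genes, each window of 73 bases of a coding transcript was looked up in all GENCODE M21 transcripts. The median share of windows found in no other gene was 48.5%, with a range of 1.5% to 100%, and 41 genes had under 50%. At least 1 annotated pseudogene shared a window with 73 genes, up to 66 for Rpl7a, 62 for Rpl21 and 52 for Rps2. Rps27 had the fewest unique windows (1.5%) and its retrocopy Rps27rt was listed at a like level, 42.9, 37.2 and 36.6 FPKM (wild type) and 40.2, 52.2 and 47.0 FPKM (heterozygous). Rps3 was unique throughout. The genes with under 50% unique windows had a median log2 difference between groups of 0.21, and the 35 with more had 0.20. Across these genes, which are not independent replicates, Spearman's rho of unique share with log2 difference was -0.01.

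The genes moved together from library to library, and the libraries did not separate by group in summed FPKM or its share. Summed over the 81 genes, wild-type FPKM came to 3334, 2698 and 2870 and heterozygous FPKM to 3326, 3684 and 3237. Wild-type replicate 1 lay within the heterozygous range, the other wild-type libraries lay below it, and heterozygous replicate 2 was highest of all. As a share of all FPKM the sum came to 5.31%, 4.90% and 5.21% in wild type and 5.38%, 5.77% and 5.0% in heterozygous libraries, or 5.14% ± 0.22 against 5.38% ± 0.39 (SD, n = 3 each), and the groups overlapped. The difference of 0.244 percentage points was 0.0491 without heterozygous replicate 2, 0.122 without wild-type replicate 2 and 0.435 without heterozygous replicate 3. With small RNA genes left out of the sum of all FPKM, the mean shares were 6.00% and 6.31%, a difference of 0.308. Heterozygous replicate 2 held the highest value of 61 of the 77 tested genes, and wild-type replicate 2 the lowest value of 59. Wild-type replicate 1 was above the lowest heterozygous library for 57 of the 77, against 93% of all tested genes, and all heterozygous libraries lay above wild-type replicates 2 and 3 for 70 of the 77 (90.9%, against 39.1% of all tested genes). Each gene's deviations over the 6 libraries followed the median deviation of the list, with a median Pearson's r of 0.95. The same figure for all tested genes against their own median was 0.85. Both were taken on unscaled FPKM, so shifts of whole libraries enter them, and the list had a higher median level than all tested genes. The median coefficient of variation of the 77 was 11.4% within wild type and 8.42% within heterozygous libraries. Relative to all tested genes the groups did not overlap. In log2(FPKM + 1), the list's median deviation minus that of all tested genes was -0.00062, -0.042 and -0.12 in wild-type libraries. It was 0.060, 0.089 and 0.041 in heterozygous libraries, and this separation was not tested.

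**Figure D2:**
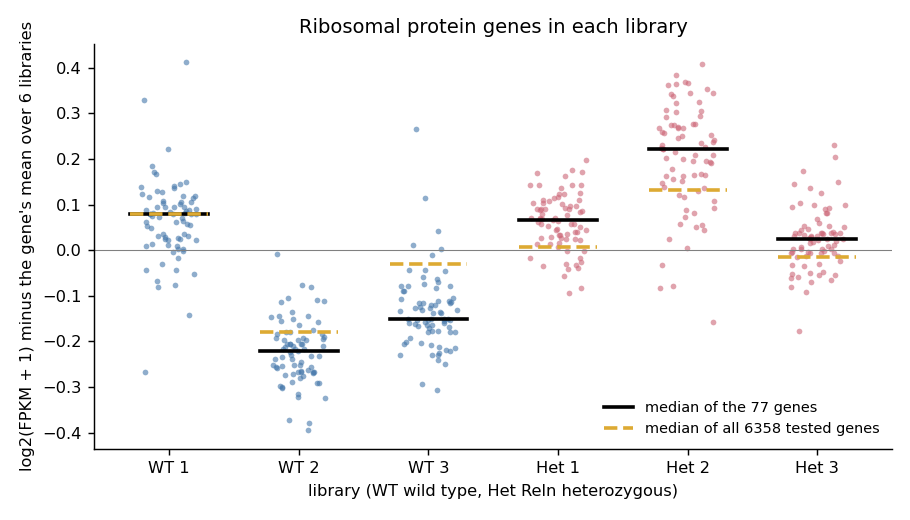
Each point is 1 of the 77 tested genes, as log2(FPKM + 1) in a library minus that gene's mean over the 6 libraries, with the median of the list (black) and of all tested genes (dashed). Wild-type replicate 1 sits at 0.079, at the level of the heterozygous libraries, while wild-type replicates 2 and 3 sit at -0.22 and -0.15 and heterozygous replicate 2 at 0.22. The median of all tested genes in wild-type replicate 1 is also high, at 0.080.

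No ribosomal protein gene passed the test between the groups, although 75 of the 77 (97.4%) had a higher heterozygous mean, as did 83.1% of all tested genes. The test was limma on log2(FPKM + 1) over all 6358 genes with Benjamini-Hochberg adjustment, in which 0.0786% of all genes (5) passed at an adjusted p of 0.05, 0.0157% higher and 0.0629% lower in heterozygous libraries. Adjusted p-values of the 77 ran from 0.90 to 0.98, and 2 of the 77 (2.6%) had an unadjusted p under 0.05, against 3.33% of all genes. That count was 14 of the 77 without the intensity trend (18.2%, against 3.19% of all genes) and 46 of the 77 with Ttr as covariate (59.7%, against 31.4% of all genes), none past the adjusted threshold. The median difference of the list was 0.20 in log2(FPKM + 1), heterozygous minus wild type, against 0.083 for all tested genes, and 70 of the 77 lay above that median. Adding 1 shrinks differences of low genes more than those of the list. With 0.1 added instead, the medians were 0.21 for the list and 0.11 for all tested genes. With 1 added, the quartiles of the list were 0.16 and 0.24, and the SE of a single gene ran from 0.10 to 0.19. Typical single differences on the deposited scale were thus of the size of their error. Values of the 2 groups did not overlap, with the heterozygous libraries higher, for 18 of the 77 genes (23.4%), against 4.81% of all tested genes. The opposite case was met by none of the 77 and by 0.739% of all genes. Outside the list, groups did not overlap with heterozygous higher for 81 of 629 tested genes with a transcript under 1 kb. The same held for 19 of 173 protein-coding genes of at least 10 FPKM and under 1 kb, and for 10 of 68 mitochondrial ribosomal protein genes.

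These differences depended on the scale and on single libraries. Median-of-ratios scaling, which sets the typical gene equal between libraries, lowered the median of the list to 0.087 and that of all genes to -0.0014. On that scale 68 of the 77 were higher (49.1% of all genes), groups did not overlap with heterozygous higher for 15 of the 77 (5.75% of all) and with heterozygous lower for 2 (5.17% of all). An unadjusted p under 0.05 was then found for 8 of the 77 (10.4%, against 5.1% of all genes), and none passed after adjustment. The SE was 0.064 for Rps13 (difference 0.22), 0.10 for Rps14 (0.29) and 0.075 for Rps16 (-0.31) on that scale. For Rpl30 (0.10) it was larger than as deposited, 0.15 against 0.10. Of the 18 genes without overlap as deposited and the 15 after scaling, 6 were shared (33.3% of the former and 40% of the latter), among them Rpl13a, Rps13, Rps15a and Rps21. After quantile normalization 61 of the 77 (52.9% of all genes) and after leaving out small RNA genes and rescaling 66 of the 77 (44.2% of all) had a higher mean, and after quantile normalization the groups did not overlap for 7 of the 77 (9.09%, against 6.79% of all genes). Without wild-type replicate 2 the median was 0.13 for the list and 0.013 for all genes, with 70 of the 77 and 55.3% of all genes higher. Without replicate 2 of both groups these were 0.070 and -0.034, with 63 of the 77 and 34.7% of all genes higher. Without wild-type replicate 1, groups did not overlap for 70 of the 77 genes (39.3% of all tested genes), and without heterozygous replicate 3 for 32 (41.6%, against 19.6% of all tested genes); no gene of the list passed in either case, while 62 genes in all (0.983%) passed without wild-type replicate 1. An unadjusted p under 0.05 was found there for 23 of the 77 (29.9%, against 14.7% of all genes).

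**Figure D3:**
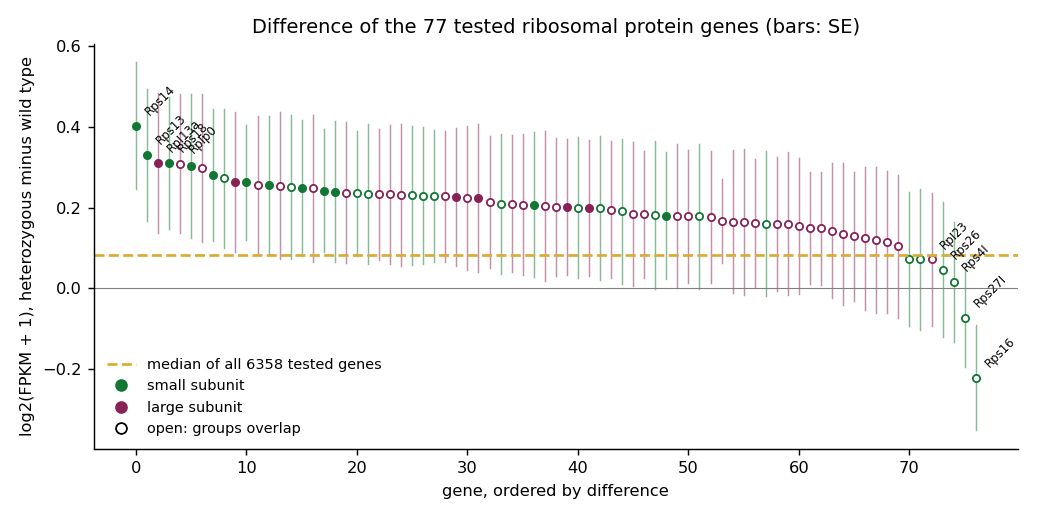
Heterozygous minus wild-type mean of log2(FPKM + 1) for the 77 tested genes in order, with SE bars from limma (n = 3 per group); filled points mark genes whose groups did not overlap. Values run from 0.40 for Rps14 to -0.22 for Rps16, 70 lie above the median of all tested genes (dashed, 0.083), and none passed the test.

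The 2 largest differences were those of small subunit genes. Rps14, which lies at the mRNA exit side of the small subunit and whose human counterpart is lost in the 5q- syndrome, is located on chromosome 18 (60747098 to 60778546, plus strand, GENCODE M21). Its wild-type values were 14.6, 14.4 and 12.9 FPKM and its heterozygous values 16.9, 20.8 and 18.8 FPKM. All heterozygous libraries were above all wild-type libraries, and wild-type replicates 1 and 2 were close to each other. The ratio of means was 1.35 and the log2 difference 0.40 (SE 0.16, limma adjusted p = 0.90), larger than that of 99.7% of tested genes; it was 0.29 after median-of-ratios scaling, where the groups overlapped. The 220.6 to 336.5 reads estimated per library carry 5.45% to 6.73% counting error.

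Rps13, a small subunit gene with the snoRNA gene Snord14a in its span, followed with wild-type values of 20.2, 16.2 and 17.4 FPKM and heterozygous values of 21.7, 26.3 and 20.5 FPKM (log2 difference 0.33, SE 0.16, limma adjusted p = 0.90). The gap between wild-type replicate 1 and the lowest heterozygous library was small. Rps18, at the head of the small subunit, had 23.0, 22.4 and 19.6 FPKM (wild type) and 27.3, 28.8 and 25.1 FPKM (heterozygous), a log2 difference of 0.31 (SE 0.16). Its groups did not overlap as deposited and did after median-of-ratios scaling. Rpl13a, a large subunit protein also known for regulating translation of inflammatory mRNAs, had 49.0, 45.5 and 44.9 FPKM (wild type) and 55.9, 62.6 and 55.3 FPKM (heterozygous), also 0.31 (SE 0.17). Rps21 (0.30) did not overlap between groups either, whereas Rplp0 (0.31) and Rpl10 (0.30) did. For Rplp0, wild-type replicate 1 had 32.4 FPKM, above the 29.3 FPKM of heterozygous replicate 3.

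**Figure D4:**
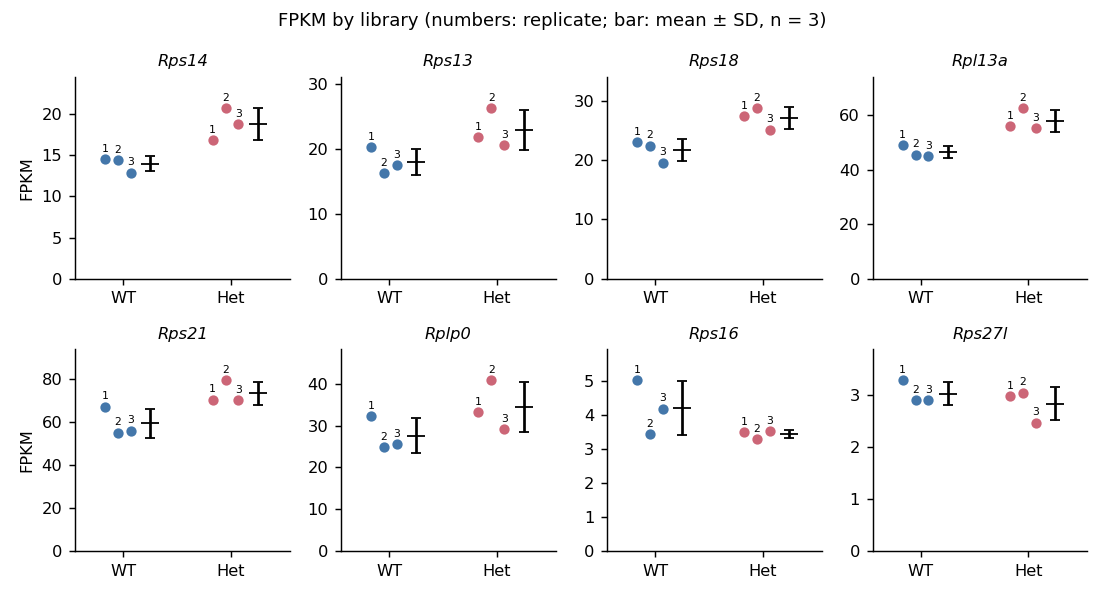
FPKM of 8 genes in each library (blue wild type, red heterozygous, numbered by replicate), with mean ± SD of the group (n = 3). In Rps14, Rps13, Rps18, Rpl13a and Rps21 the heterozygous libraries lie above all wild-type libraries; in Rplp0 the groups overlap, and in Rps16 and Rps27l they overlap with a lower heterozygous mean.

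Both subunits had higher heterozygous means. The 32 tested small subunit genes had a median log2 difference of 0.23, with 30 higher and 2 lower, and the 45 tested large subunit genes had 0.20, with all 45 higher. Non-overlapping groups were found for 12 of 32 small and 6 of 45 large subunit genes, against 4.81% of all tested genes, and none passed the test. The difference between the subunits was not tested.

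Genes grouped by the place of their protein in the ribosome had the following values, none past the test. Around the peptidyl transferase centre, where peptide bonds are made, Rpl10 (0.30), Rpl8 (0.25) and Rpl3 (0.23) had a median log2 difference of 0.25. Along the wall of the tunnel through which the new chain leaves, Rpl39 (0.18), Rpl17 (0.18) and Rpl4 (0.10) had smaller values, and Rpl4 went to -0.013 after median-of-ratios scaling. Around the exit of that tunnel, where signal recognition particle and chaperones dock, the differences were 0.22 for Rpl19, 0.15 for Rpl31, 0.15 for Rpl26, 0.14 for Rpl35 and 0.12 for Rpl23a. Heterozygous replicate 2, the highest heterozygous library for 65 of the 77 genes, was the lowest for Rpl17, with 83.6, 72.9 and 82.6 FPKM against wild-type values of 74.5, 70.5 and 65.1 FPKM.

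The stalk that recruits elongation factors consists of Rplp0 (0.31), Rplp1 (0.20) and Rplp2 (0.21). Levels per length were unequal among its parts, with means of 110 FPKM for Rplp1, 31.0 for Rplp0 and 16.9 for Rplp2. Rpl5 (0.18) and Rpl11 (0.20), which join the smallest ribosomal RNA and bind Mdm2 when ribosome assembly fails, differed by about as much as the list. At the mRNA entry channel Rps3 had 0.25 and Rps2 0.18. Rps3 had 33.6, 29.5 and 27.8 FPKM (wild type) and 36.3, 36.4 and 35.4 FPKM (heterozygous), without overlap as deposited but with overlap after median-of-ratios scaling. The mRNA exit side was uneven, since Rps14 had the largest value of the list while Rps28 had 0.073 and Rps26 0.046. After median-of-ratios scaling Rps28 and Rps26 turned to -0.041 and -0.068. The 15 genes mutated in Diamond-Blackfan anaemia, a failure of red cell production in people, all had higher heterozygous means, with a median of 0.20, and 12 of the 15 after median-of-ratios scaling. The groups did not overlap for 2 of the 15, against 4.81% of all tested genes.

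Rps16 and Rps27l were the genes with a lower heterozygous mean. Rps16, a protein of the small subunit head (chromosome 7, 28350652 to 28353155, plus strand), had wild-type values of 5.01, 3.43 and 4.17 FPKM and heterozygous values of 3.48, 3.29 and 3.52 FPKM. Its heterozygous values were close together and overlapped only with wild-type replicate 2. The log2 difference was -0.22 (SE 0.13, limma adjusted p = 0.90), at percentile 1.1 of all tested genes, and -0.31 after median-of-ratios scaling, where the groups did not overlap (limma adjusted p = 0.78). Its estimated 89.4 to 157.3 reads carry 7.97% to 10.6% counting error. Rps27l, a p53-responsive paralogue of Rps27, had 3.29, 2.90 and 2.90 FPKM (wild type) and 2.99, 3.05 and 2.47 FPKM (heterozygous), a log2 difference of -0.073 as deposited and -0.16 after scaling. Its groups overlapped as deposited and did not after scaling, with an estimated 28.2 to 46.5 reads. Rpl23 had the smallest difference among large subunit genes (0.072), and it was -0.041 after scaling.

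Rps27 had a mean of 39.7 FPKM and a log2 difference of 0.27, against 2.93 FPKM and -0.073 for Rps27l. Rps4x, on chromosome X, had 28.6 FPKM and 0.23. Rps4l on chromosome 6, annotated as a transcribed processed pseudogene, had 6.09 FPKM and 0.015, with wild-type replicate 1 at 8.31 FPKM against 5.02 FPKM in both other wild-type libraries. The sign for Rps4l turned under every other scaling tried, -0.083 after median-of-ratios scaling. Rpl3 (46.0 FPKM), Rpl10 (63.7 FPKM) and Rpl39 (14.6 FPKM) stood against tissue-restricted copies at or near 0.

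When each library was scaled to the ribosomal protein genes themselves, in a fit over all genes added after the data were seen, no gene of the list passed and 3 were higher and 7 lower in heterozygous libraries without overlap (3.9% and 9.09% of the 77, against 0.803% and 15.6% of all tested genes). This scaling holds the median of the list near 0 by design (-0.00090) and put that of all tested genes at -0.066. The shares therefore follow in part from the scaling and do not compare the list with other genes. Relative to the list Rps13 (0.13) and Rps21 (0.098) were among the higher ones. Rps16 (-0.38), Rps27l (-0.23), Rps26 (-0.16), Rps28 (-0.13), Rpl23a (-0.087), Rpl36a (-0.069) and Rpl36 (-0.040) were lower. Rps14 was at 0.21 there, with overlap.

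Some ribosomal protein genes are missed by the name rule. All 7 that were listed had a higher heterozygous mean (median 0.18), and none passed the test. Fau (69.2 ± 8.2 FPKM in wild-type against 78.4 ± 4.5 FPKM in heterozygous libraries, SD, n = 3 per group), which encodes a ribosomal protein joined to a ubiquitin-like domain, had a difference of 0.18. Rack1, a signalling scaffold on the small subunit, had 0.28 and Rpl22l1, the paralogue of Rpl22, 0.29. Rpl7l1 had the smallest value, 0.11. Rpl22l1 was at 8.81 FPKM in heterozygous replicate 2 and at 4.83 to 5.56 FPKM in the other 5 libraries.

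Other lists of the translation apparatus had smaller medians than the 0.20 of the ribosomal protein genes. Of 18 other TOP genes, 16 were higher with a median of 0.11 (83.1% of all tested genes were higher, median 0.083); after median-of-ratios scaling 10 of the 18 were higher, with a median of 0.027. Eef1a1, the elongation factor that brings tRNA to the ribosome, had 0.27, Tpt1 0.24 and Eif3f 0.235, while Gas5, a noncoding TOP transcript, had -0.092. Of 30 tested ribosome biogenesis genes, 28 were higher, with a median of 0.081, and 15 after scaling, with a median of -0.00027; Eif6 had 0.21, Tsr1 0.21, Imp3 0.21 and Nop56 -0.035. Of 68 tested mitochondrial ribosomal protein genes, 66 were higher, with a median of 0.16, and 57 after scaling, with a median of 0.064. The largest were Mrps12 (0.55), Mrps26 (0.38) and Mrpl10 (0.33), and the smallest Mrpl50 (-0.023). None of these genes passed the test, and differences between the lists were not tested.

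Transcript length moved with the difference over all tested genes (Spearman's rho -0.39 across 6247 genes with a length) and little across the ribosomal protein genes (rho -0.08); genes are not independent replicates. Outside the list, tested genes of any type, coding or not, with a transcript under 1 kb had a median difference of 0.14. Those of 1 to 2 kb had 0.12, those of 2 to 4 kb 0.084 and those over 4 kb 0.037. Ribosomal protein transcripts are short, with 681.5 bases as the median of the tested genes against 2582 bases for all tested genes, and 60 of the 77 were under 1 kb. The 173 other protein-coding genes of at least 10 FPKM and under 1 kb had a median of 0.17, with 96% higher, and 0.059 after median-of-ratios scaling. The list stood at 0.20, 97.4% and 0.087 on the same measures. Long nuclear RNAs had lower heterozygous means. Malat1 had 426, 677 and 646 FPKM (wild type) and 428, 372 and 304 FPKM (heterozygous), and the median log2 difference of the 4 tested ones was -0.59, none past the test. With 2 more under the minimum they summed to 443 to 703 FPKM (wild type) and 315 to 444 FPKM (heterozygous), with wild-type replicate 1 again among the heterozygous values. Among marker lists, 4 of 4 tested microglial genes (6 listed) had higher heterozygous means, with a median of 0.30 (0.21 after scaling), and summed to 6.81 to 12 FPKM in wild-type against 9.23 to 17.1 FPKM in heterozygous libraries. All 5 oligodendrocyte genes had higher means, with a median of 0.26 (0.17 after scaling), and summed to 100 to 161 FPKM against 131 to 177 FPKM. None of these genes passed, and both sums were highest in heterozygous replicate 2 and lowest in wild-type replicate 2. Over all tested genes 83.1% were higher, with a median of 0.083. The other cell type lists had lower medians. Astrocytes and Bergmann glia had 0.18 (5 of 5 higher), inhibitory interneurons 0.15 (4 of 4) and Purkinje cells 0.14 (6 of 6). Granule cells had 0.070 (5 of 8), endothelium 0.048 (1 of 2), red blood cells -0.11 (0 of 6) and choroid plexus -0.78 (0 of 4). The part of transcript length, RNA recovery or cell makeup in the difference of the ribosomal protein genes was not tested.

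**Figure D5:**
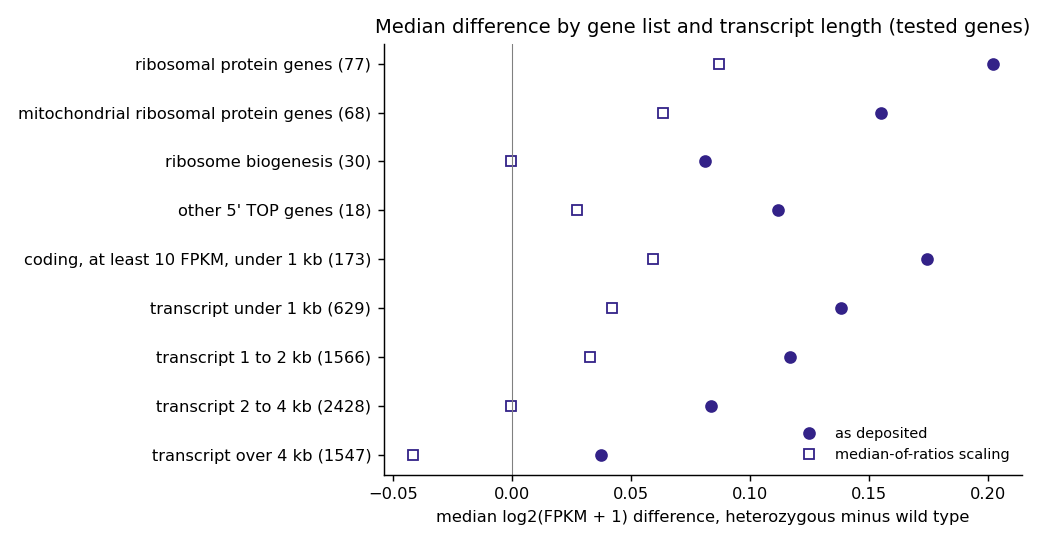
Median difference in log2(FPKM + 1), heterozygous minus wild type, for gene lists and for all other tested genes by transcript length (number tested in brackets), as deposited (filled) and after median-of-ratios scaling (open). The ribosomal protein genes stand at 0.20 and 0.087, close to other short, abundant coding genes at 0.17 and 0.059, and the medians fall from 0.14 to 0.037 with increasing length.

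The spans of 23 tested genes held 32 snoRNA genes on the same strand, of which the files list 31. Of these, 6 reached the testing minimum and 13 were at 0 in every library. Snord15b, inside Rps3, had 32.5, 45.9 and 37.9 FPKM (wild type) and 29.6, 44.3 and 41.3 FPKM (heterozygous), with overlapping groups and a log2 difference of -0.020, while Rps3 had 0.25. Snora7a, inside Rpl32, had 10.4, 23.1 and 11.9 FPKM (wild type) and 9.56, 10.9 and 28.1 FPKM (heterozygous). Its high libraries were wild-type replicate 2 and heterozygous replicate 3, in which Rpl32 had 32.2 and 35.0 FPKM. Snord15a, also inside Rps3, was among the genes past the test and was lower by 0.70 in heterozygous libraries (limma adjusted p = 0.014). It had 1.43, 3.77 and 2.13 FPKM (wild type) and 0.538, 0.997 and 1.77 FPKM (heterozygous), with overlapping groups. Its mean of 1.77 FPKM was near the testing minimum, its transcript is short, and its reads were not estimated. No gene passed after median-of-ratios scaling. The difference between a snoRNA and its host was not tested.

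By chromosome, the 77 tested genes were spread over 19 chromosomes, with 14 on chromosome 7 and 4 on chromosome X.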

How the data were processed

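Total RNA of cerebellum was measured in 6 libraries, 3 per group. The values deposited by the authors are FPKM. Per the labels' protocols, mitochondrial and ribosomal sequences were removed, 2 bases trimmed, and reads placed on mm10 with TopHat2 and Bowtie 1 before Cufflinks; the authors' Cuffdiff test was not used. The annotation release, strand setting and handling of reads with several positions were not found in the labels or headers. In heterozygous replicate 2, 40 values were dates; those genes, none a ribosomal protein gene, were left out. Genes of at least 1 FPKM on average were tested two-sided on log2(FPKM + 1), which understates changes of low genes, with limma 3.58.1 (R 4.3.3; intensity trend; Benjamini-Hochberg adjustment over all tested genes). The prior held 54.4 degrees of freedom against 4 from a gene's libraries, so the SEs rest mainly on other genes. Read numbers are approximate: they come from the value of 1 read in 4529 genes with a single transcript of at least 300 bases (GENCODE M21), after other estimators of that value proved unstable, and counting errors cover sampling only. Whole reads could not be recovered for a count test. The fit was tested on simulated data. Tables and figures used Python 3.11.15, pandas 2.3.3 and matplotlib 3.10.9.

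Members and lists were chosen with earlier results of these data known. Named genes are Rps14, Rps13 and Rps18; the 8 largest and 5 smallest differences; the 5 highest and 5 lowest levels; unadjusted p under 0.05; role lists and paralogue pairs; genes under the minimum; and in related lists the 3 largest and the smallest value; some that meet this rule are not reported here. Chosen after values were seen were the 5 promoter motifs and the sequences shown, the windows of 73 bases, the length and level classes, the scaling to the ribosomal protein genes, and Rps3, Rpl7a, Rpl21, Rps27rt, Fau, the snoRNA genes and those named for not overlapping. Transcript length is that of the shortest principal coding transcript where one is annotated. Otherwise it is the median over the gene's coding transcripts or, where it has none, over all its transcripts. The definition was changed once after a length of Rps15a looked wrong. Alternatives covered the pseudocount, filter, scaling, trend, block, Ttr and each library left out.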

Additional observations from a re-analysis of the deposited data

How the results depend on the processing

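None of the ribosomal protein genes passed the test under any alternative; the lowest adjusted p was 0.136 (limma, with Ttr as covariate). Over all tested genes, where 5 passed, 0 passed with a minimum of 0.5 FPKM, with either median-of-ratios scaling, with quantile normalization, without small RNA genes, without the intensity trend, with Ttr as covariate and with median-of-ratios scaling without wild-type replicate 1 (added after the data were seen). Without a filter 1 passed, without replicate 2 of both groups 67, and leaving out 1 library gave 5 to 62, the highest without wild-type replicate 1. With the replicate number as a block 13 passed, none a ribosomal protein gene. Deviations of same-numbered libraries from their group means correlated at -0.28, -0.52 and 0.14 over all tested genes. Each value compares only 1 pair of libraries, so these cannot show whether same-numbered libraries share a batch. The labels give no pairing beyond the number. Leaving out 1 library gave 18 to 70 ribosomal protein genes without overlap (5.23% to 39.3% of all tested genes), 32 without heterozygous replicate 3 (19.6%). Quantile normalization lowered the median of the list to 0.0443, its distance from all genes to 0.0389 and the genes without overlap to 7 (9.09%, against 6.79% of all genes); that distance was 0.192 without a filter, where more low genes enter. The difference in share of FPKM, 0.244 percentage points, became -0.0726 without replicate 2 of both groups.

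Of 629 values for 37 named genes, 591 kept their direction and 38 turned, in 9 genes; the cause was not tested. After median-of-ratios scaling, and with the ribosomal protein genes left out of its factors, these were Rpl23 (-0.0412 and -0.0397), Rpl4 (-0.0127 and -0.0111), Rps26 (-0.0679 and -0.0663), Rps28 (-0.0409 and -0.0394) and Rps4l (-0.0828 and -0.0815). After quantile normalization they were Rpl17 (-0.0221), Rpl23 (-0.0679), Rpl23a (-0.0348), Rpl4 (-0.0513), Rps26 (-0.0966), Rps28 (-0.0401) and Rps4l (-0.0886). Without small RNA genes they were Rpl23 (-0.0557), Rpl23a (-0.0125), Rpl4 (-0.0276), Rps26 (-0.0825), Rps28 (-0.0555) and Rps4l (-0.0956). Without replicate 2 of both groups they were Rpl22 (-0.0239), Rpl23 (-0.0739), Rpl23a (-0.0371), Rpl4 (-0.0575), Rplp2 (-0.0120), Rps26 (-0.0475), Rps28 (-0.0330) and Rps4l (-0.0437). Without wild-type replicate 2 they were Rpl23 (-0.0480), Rpl4 (-0.0011), Rps26 (-0.0318), Rps28 (-0.00463) and Rps4l (-0.0889). Leaving out 1 library, the highest values of these genes came without wild-type replicate 1: Rpl23 0.173, Rpl4 0.177, Rps26 0.169, Rps28 0.164 and Rps4l 0.225. Rps4l was also at -0.0899 without wild-type replicate 3 and at -0.0790 without heterozygous replicate 1.

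Depth limits the lowest genes: Rpl30 rests on an estimated 13.6 to 27.9 reads per library and Rps27l on 28.2 to 46.5.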
